A study of Mus musculus with 18 samples.

Results

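The genes described here encode 36 enzymes of glucose breakdown: 16 of glycolysis and lactate formation, 7 of the pentose phosphate pathway, and 13 of pyruvate dehydrogenase and the tricarboxylic acid (TCA) cycle. A gene was taken as measured when a probe set of the array carried its symbol and no other, and the brightest such probe set stood for it. By this rule 31 of the 36 were measured (13 of 16, 5 of 7 and 13 of 13), among 22180 genes measured in the series, and all 31 were among the 13034 genes bright enough to be tested. No single-symbol probe set stood for Gpi1, Eno1 or G6pdx, and the probe sets of Aldoa and Tkt carried other symbols too, so these 5 are not analysed here.

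The cells were invariant natural killer T (iNKT) cells of the thymus of C57BL/6 mice, T cells that recognise lipids on CD1d and were picked out as TCRb+ and CD1d-PBS57 tetramer+ but CD24-. Each of 6 groups had 3 Affymetrix MoGene-2_0 arrays, 18 in all: Mst1KO cells, from Cd4CreMst1fl/fl mice that lack the kinase MST1 (gene Stk4) in cells that have expressed the Cd4-driven Cre, and WT cells, each at stage S1 (CD44- NK1.1-), S2 (CD44+ NK1.1-) and S3 (CD44+ NK1.1+). The design text gives 3 mice per genotype. Whether WT mice carried Cre, the ages of the mice, and whether the stages of a replicate number came from 1 mouse are points not given in the sources used here. RNA of 1 to 20 ng was amplified before labelling, and nothing beyond the 3 mice says how separate the samples were, so the p-values measure the spread between these arrays, which may be partly technical.

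Glycolysis splits glucose into pyruvate in the cytosol, and lactate dehydrogenase turns pyruvate into lactate. The pentose phosphate pathway branches off to make NADPH and ribose for nucleotides, and pyruvate dehydrogenase feeds the TCA cycle in mitochondria. In lymphocytes this machinery is known to be raised in dividing cells and lowered in resting ones, and iNKT cells are known to divide mainly at the early stages and to rest once NK1.1+.

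The values were log2 expression per probe set, so a difference of 1 is a doubling, and each array's median lay between 4.81 and 4.93. A gene was called in a comparison when its p-value from limma, adjusted over all 13034 genes, was under 0.05. Levels of different genes were not ranked against each other, since probe sets differ in brightness. For isoenzyme pairs, only the change between stages in their difference within an array was tested. In sorted bulk cells, fewer cells that express a gene and less RNA per cell cannot be told apart. Stk4 itself was lower on the Mst1KO arrays by 0.29 (S1), 0.35 (S2) and 0.39 (S3), with no call at any single stage and a call over the stage average (-0.34, adjusted p = 0.0297); the sources used here do not say how much of its probe set lies in the deleted part. For marker lists, the cut was each array's median over the 22180 measured genes, which is not the median over all probe sets given above. All 8 iNKT markers examined lay above this cut on all 3 arrays of every group. No group had any of 6 measured B cell markers or the measured erythroid marker above it on all 3 arrays. The B cell marker Cd79b did exceed the median over all probe sets in WT S2 cells (5.35, 5.51 and 5.02) and Mst1KO S3 cells (5.23, 5.08 and 5.18).

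As a median over the 31 genes, the enzymes were lower at S3 in both genotypes, and most of that change fell between S2 and S3. This did not hold for every gene or pathway. Relative to each gene's mean over the 18 arrays, the median over the 31 genes lay between -0.20 and -0.07 on the Mst1KO S3 arrays and between -0.25 and -0.16 on the WT S3 arrays. At S1 it lay between 0.10 and 0.16 in Mst1KO cells and between 0.02 and 0.19 in WT cells, and at S2 between 0.01 and 0.08 in Mst1KO cells and between -0.02 and 0.09 in WT cells. Every S3 array thus stood below every S1 and S2 array of its genotype.

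**Figure D1:**
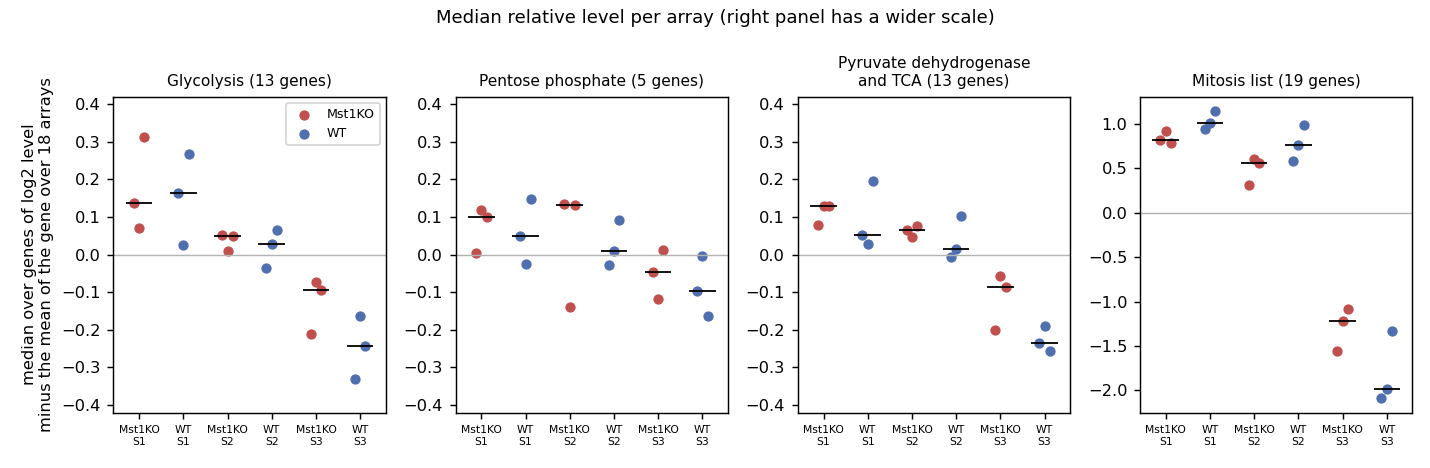
Each point is 1 array, grouped by stage and genotype (Mst1KO red, WT blue), and shows the median over the genes of a list of the log2 level minus the gene's mean over 18 arrays, with a line at the group's middle array. All S3 points of the glycolysis and TCA panels lie below 0, and the mitosis panel, on a wider scale, has its S3 points between -2.09 and -1.09.

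From S1 to S3, 9 of the 31 genes were called lower and 1 higher in Mst1KO cells, where 14.4% of all tested genes were called lower and 12.3% higher. In WT cells 17 of the 31 were called lower and none higher, where 18.4% of all tested genes were called lower and 15.4% higher; at an unadjusted p under 0.05, 1 of the 31 was higher. The median difference over the 31 was -0.25 in Mst1KO cells and -0.37 in WT cells, against a median near 0 over all genes. By pathway, 5 of 13 glycolysis genes, 2 of 5 pentose phosphate genes and 2 of 13 pyruvate dehydrogenase and TCA genes were lower in Mst1KO cells. The WT counts were 8 of 13, 1 of 5 and 8 of 13. The 2 of 13 in Mst1KO cells and the 1 of 5 in WT cells lie near the shares of all tested genes called lower, 14.4% and 18.4%. The Mst1KO genes were Pfkm, Pgk1, Pgam1, Pkm, Ldhb, Taldo1, Rpe, Idh2 and Mdh2, with Pgd higher. Of these calls, Pfkm, Taldo1 and Mdh2 were each lost in 3, and Rpe and Pgd in 2, of 6 fits without 1 array. The WT genes were Hk2, Pfkp, Tpi1, Pgk1, Pgam1, Pkm, Ldha, Ldhb, Taldo1, Pdha1, Dld, Cs, Idh2, Idh3a, Suclg1, Fh1 and Mdh2. The WT count was 11 in the fit without WT S1 replicate 3.

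Between S2 and S3, 6 of the 31 were called lower and none higher in Mst1KO cells (background of lower calls 9.18%; none was higher at an unadjusted p under 0.05), and 13 lower and 1 higher in WT cells (background 13.2% lower and 10.4% higher). The Mst1KO genes were Pgk1, Pgam1, Pkm, Ldhb, Rpe and Idh3a, of which Pgam1 was lost in 5 and Idh3a in 4 of 6 fits without 1 array. The WT genes were Pfkp, Pgk1, Pgam1, Pkm, Ldha, Ldhb, Taldo1, Pdha1, Cs, Idh3a, Suclg1, Fh1 and Mdh2, with Eno3 higher; Cs was lost in 5 of 6 such fits. Without WT S3 replicate 1 the WT count of 14 was 9, and without Mst1KO S2 replicate 1 or replicate 3 the Mst1KO count of 6 was 3. Between S1 and S2, 2 genes (Ldhb and Idh2) were called lower in Mst1KO cells, where 2.9% of all genes were, and 1 (Ldhb) in WT cells, where 1.14% were. None was called higher in either genotype in that step, and at an unadjusted p under 0.05 none was either; the Ldhb call was lost in each genotype in 4, and the Idh2 call in 5, of the 6 fits that each left out 1 array of the step. The comparisons within a genotype share arrays, so they are not independent of each other.

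**Figure D2:**
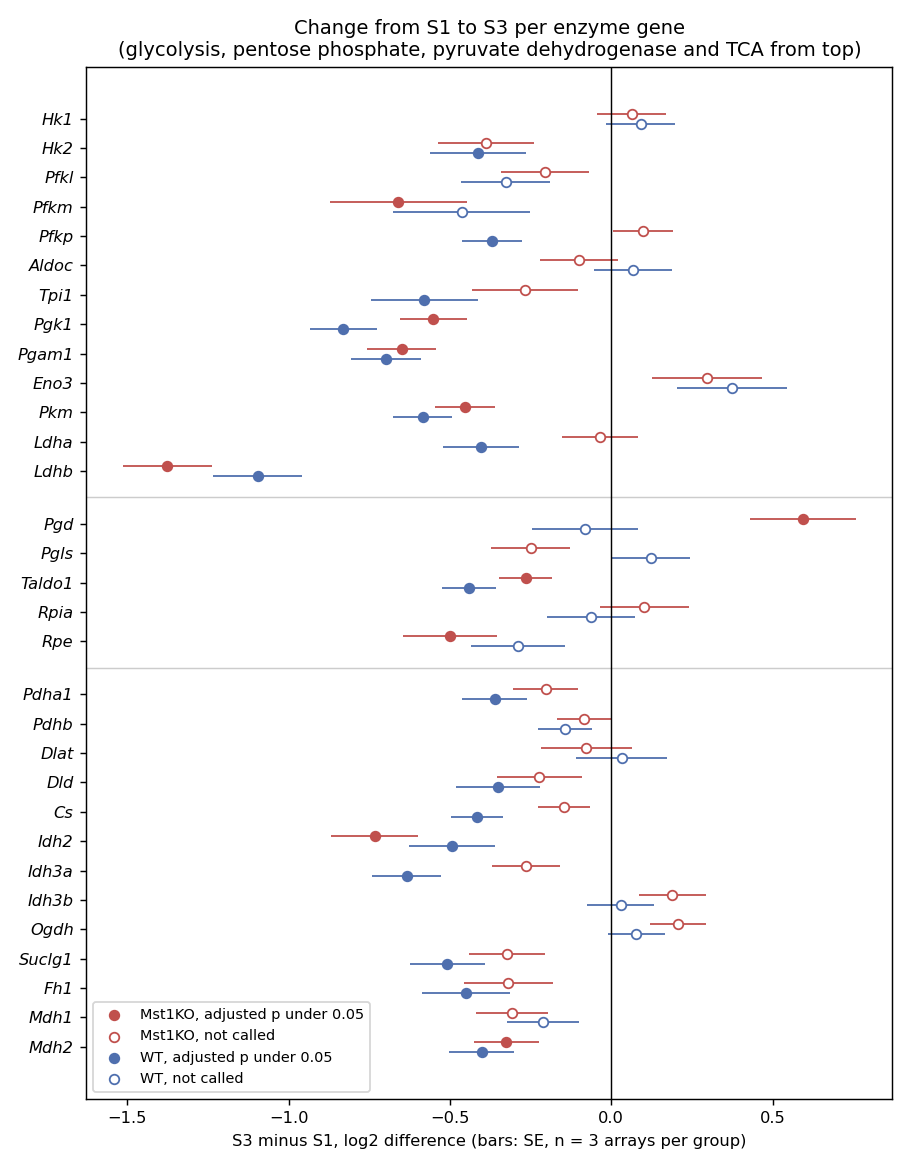
Each row is 1 gene, and points give the S3 minus S1 log2 difference in Mst1KO cells (red, upper) and WT cells (blue, lower) with SE (n = 3 arrays per group), filled where called. Ldhb lies farthest left in both genotypes, and Pgd in Mst1KO cells is the filled point right of 0.

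In the upper part of glycolysis, hexokinase opens the pathway. Hk1, the ubiquitous hexokinase that traps glucose as its phosphate, stood at 6.79, 6.7 and 6.72 (log2) in Mst1KO S1 cells, 6.82, 6.95 and 7.0 in S2 and 6.59, 6.92 and 6.9 in S3. In WT cells Hk1 stood at 6.84, 6.73 and 6.82 (S1), 6.65, 7.05 and 6.83 (S2) and 6.86, 6.87 and 6.93 (S3). Hk2, the inducible hexokinase of activated lymphocytes, was dim, at 5.12, 5.24 and 5.59 in Mst1KO S1 cells, 5.23, 5.16 and 5.5 at S2 and 4.73, 5.13 and 4.92 at S3. In WT cells Hk2 stood at 5.42, 5.34 and 5.69 (S1), 5.22, 4.92 and 4.93 (S2) and 5.25, 5.02 and 4.94 (S3). The Hk1 values of all groups lay close together, and Hk2 was lowest at S3 in Mst1KO cells and at S2 and S3 in WT cells. Hk1 was called in no comparison. Hk2 was called lower at S3 than at S1 in WT cells (-0.41 ± 0.15, SE; adjusted p = 0.0408), a call lost in 4 of 6 fits without 1 array, while its difference in Mst1KO cells was -0.39 (95% interval -0.7 to -0.07), uncalled.

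Phosphofructokinase, the committed step of glycolysis, has 3 genes: Pfkp (platelet type), Pfkl (liver type) and Pfkm (muscle type). Pfkp stood at 10.22, 9.9 and 10 in Mst1KO S1 cells, 10.16, 10.19 and 10.29 at S2 and 10.18, 10.04 and 10.19 at S3. In WT cells it stood at 9.95, 9.85 and 9.87 (S1), 9.98, 9.84 and 10.01 (S2) and 9.43, 9.59 and 9.53 (S3). The WT S3 arrays were the lowest 3 of all 18, and the Mst1KO S3 arrays lay among those of the earlier stages. Pfkp fell between S2 and S3 in WT cells (-0.43 ± 0.09, SE; adjusted p = 0.00272) and was uncalled in Mst1KO cells (-0.07, 95% interval -0.27 to 0.13). Pfkl stood at 7.19, 7.13 and 7.45 in Mst1KO S1 cells, 7.02, 7.0 and 6.87 at S2 and 7.03, 7.03 and 7.11 at S3. In WT cells Pfkl stood at 7.18, 7.12 and 7.57 (S1), 7.14, 6.99 and 7.16 (S2) and 6.76, 7.27 and 6.86 (S3). The highest Pfkl value of each genotype was an S1 array, and it was called in no comparison. Pfkm, above the array median on 17 of 18 arrays and always dim, stood at 5.85, 5.98 and 5.98 in Mst1KO S1 cells, 6.07, 5.3 and 5.49 at S2 and 5.49, 5.45 and 4.9 at S3. In WT cells Pfkm stood at 5.91, 5.85 and 5.71 (S1), 5.52, 5.98 and 5.84 (S2) and 5.64, 5.53 and 4.91 (S3). It was called lower at S3 than at S1 in Mst1KO cells (-0.66 ± 0.21, adjusted p = 0.0284); the WT difference was -0.46 and uncalled.

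Of the measured enzymes that carry 3-carbon intermediates to pyruvate, Pgk1, Pgam1 and Pkm were called lower at S3 than at S1 in both genotypes, Tpi1 in WT cells alone, and Eno3 in neither. Pgk1, which makes the first ATP of the pathway, stood at 10.03, 10.11 and 10.23 in Mst1KO S1 cells, 9.95, 9.95 and 10.13 at S2 and 9.61, 9.53 and 9.57 at S3. In WT cells it stood at 10.14, 10.17 and 10.4 (S1), 9.83, 10.02 and 10.22 (S2) and 9.37, 9.41 and 9.44 (S3). All 6 S3 arrays lay below all 12 earlier ones, and S1 overlapped S2. Pgk1 fell between S1 and S3 by 0.55 in Mst1KO cells (1.47-fold, SE 0.10, adjusted p = 0.000704) and by 0.83 in WT cells (1.78-fold, SE 0.10, adjusted p = 8.61e-06).

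Pgam1, the phosphoglycerate mutase, stood at 9.6, 9.68 and 9.71 in Mst1KO S1 cells, 9.52, 9.19 and 9.35 at S2 and 9.03, 9.05 and 8.95 at S3. In WT cells Pgam1 stood at 9.74, 9.64 and 9.79 (S1), 9.45, 9.63 and 9.7 (S2) and 9.08, 8.82 and 9.18 (S3). The S3 arrays lay below the S1 and S2 arrays in both genotypes, with differences from S1 of -0.65 ± 0.11 in Mst1KO cells and -0.7 ± 0.11 in WT cells (SE; adjusted p = 0.000217 and 7.66e-05). A second, dimmer single-symbol probe set of Pgam1 differed by -0.35 in Mst1KO cells and -0.17 in WT cells over the same stages, in the same direction and less. Glycolytic genes have many near-identical processed copies in the mouse genome, so how far a probe set reads the parent gene alone is uncertain. Pkm, pyruvate kinase, stood at 10.09, 10.13 and 10.24 in Mst1KO S1 cells, 9.97, 10.08 and 10.13 at S2 and 9.62, 9.75 and 9.74 at S3. In WT cells Pkm stood at 10.15, 10.05 and 10.38 (S1), 10, 9.99 and 10.11 (S2) and 9.61, 9.54 and 9.68 (S3). Again no S3 array overlapped an earlier one. Pkm fell by 0.45 between S1 and S3 in Mst1KO cells and by 0.58 in WT cells (adjusted p = 0.00145 and 0.000103).

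Tpi1, triose phosphate isomerase, stood at 9.81, 9.83 and 10 in Mst1KO S1 cells, 9.51, 9.7 and 9.96 at S2 and 9.59, 9.55 and 9.7 at S3. In WT cells Tpi1 stood at 9.96, 9.82 and 10.5 (S1), 9.76, 9.83 and 10.29 (S2) and 9.47, 9.48 and 9.6 (S3). WT S3 lay below the other WT stages, whereas Mst1KO S3 overlapped Mst1KO S2. Tpi1 was called lower at S3 than at S1 in WT cells (-0.58, adjusted p = 0.0117) and not in Mst1KO cells (-0.27, 95% interval -0.62 to 0.08). Eno3, the muscle-type enolase, ran the other way. It stood at 7.4, 7.88 and 8.13 in Mst1KO S1 cells, 7.92, 8.05 and 7.78 at S2 and 8.12, 8.15 and 8.03 at S3. In WT cells Eno3 stood at 7.62, 7.61 and 7.58 (S1), 7.64, 7.14 and 7.55 (S2) and 7.88, 8.28 and 7.76 (S3). Mst1KO S1 spread widely, and WT S2 was the lowest group. Eno3 rose between S2 and S3 in WT cells (0.53 ± 0.17, SE; adjusted p = 0.0314), with 0.18 (95% interval -0.18 to 0.55) in Mst1KO cells. Aldoc, the brain-type aldolase, lay above the array median on 3 of 18 arrays and was called nowhere.

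**Figure D3:**
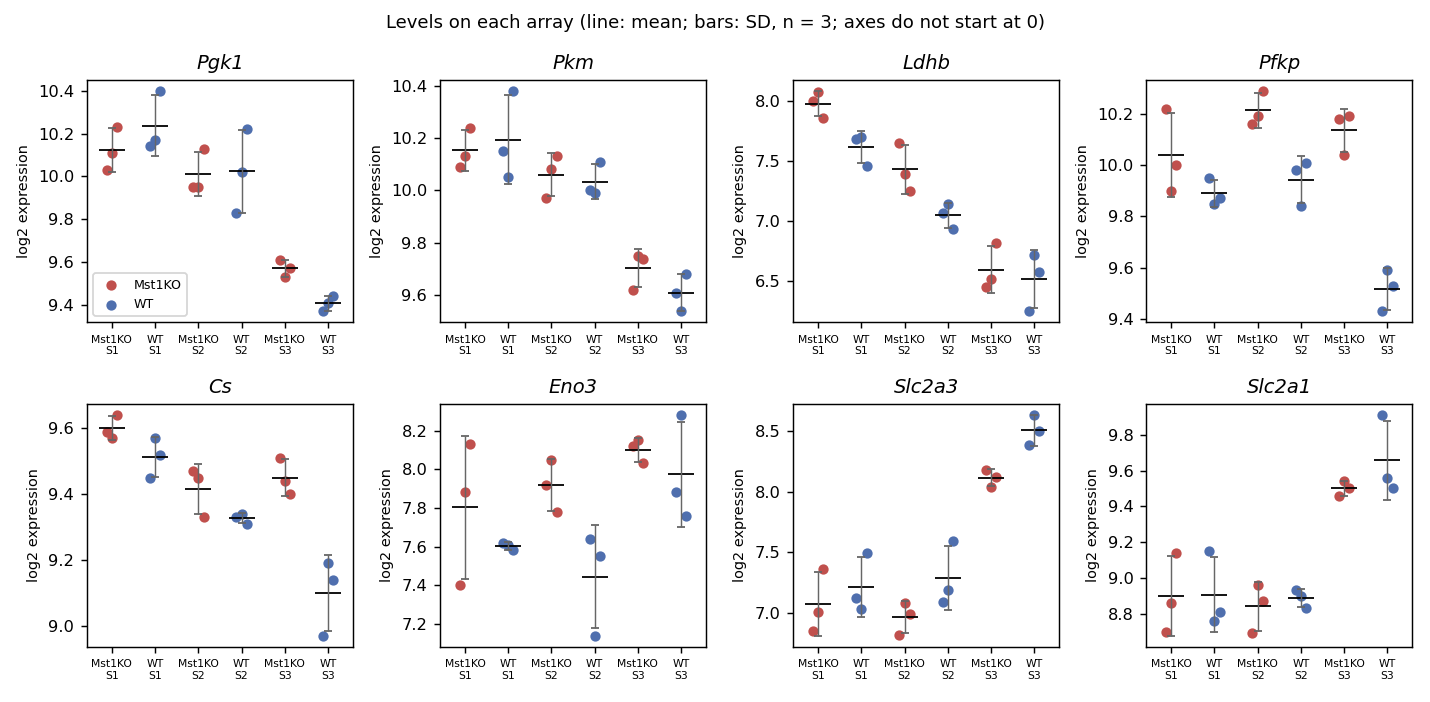
Log2 expression of 8 genes on each array (points; Mst1KO red, WT blue), with the mean and SD of each group (n = 3), by stage and genotype. Pgk1, Pkm and Ldhb are lowest at S3 in both genotypes, Pfkp and Cs are lowest in WT S3, and the glucose transporters Slc2a3 and Slc2a1 are highest at S3.

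Lactate dehydrogenase is a tetramer of the products of Ldha (muscle type) and Ldhb (heart type), and the 2 genes moved apart. Ldhb stood at 8.0, 8.07 and 7.86 in Mst1KO S1 cells, 7.65, 7.39 and 7.25 at S2 and 6.45, 6.52 and 6.82 at S3. In WT cells it stood at 7.68, 7.7 and 7.46 (S1), 7.07, 7.14 and 6.93 (S2) and 6.25, 6.72 and 6.58 (S3). In each genotype every S2 array lay below every S1 array, and every S3 array below every S2 array. Ldhb fell by 1.38 between S1 and S3 in Mst1KO cells (2.60-fold, SE 0.14, adjusted p = 1.06e-06) and by 1.1 in WT cells (2.14-fold, SE 0.14, adjusted p = 8.86e-06), the largest difference among the 31 genes in both. Ldha stood at 8.49, 8.48 and 8.28 in Mst1KO S1 cells, 8.39, 8.33 and 8.36 at S2 and 8.24, 8.28 and 8.62 at S3. In WT cells Ldha stood at 8.43, 8.28 and 8.43 (S1), 8.36, 8.44 and 8.38 (S2) and 7.75, 8.18 and 8.0 (S3). Only the WT S3 arrays lay apart, below the earlier WT arrays. Ldha was lower at S3 than at S2 in WT cells (-0.42, adjusted p = 0.0155), with 0.03 (95% interval -0.22 to 0.27) in Mst1KO cells.

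Whether isoenzyme genes changed unequally was tested on their difference within each array, by exact permutation of the stage labels within each genotype (400 arrangements, two-sided, 4 pairs and 2 steps, adjusted over these 8 tests). Ldhb minus Ldha fell by 0.53 between S1 and S2 (by 0.49 in Mst1KO cells and 0.58 in WT cells; exact permutation p = 0.005, the smallest possible, adjusted p = 0.02). It fell by a further 0.48 between S2 and S3 (by 0.86 in Mst1KO cells and 0.11 in WT cells; permutation p = 0.01, adjusted p = 0.02). The 3 Mst1KO S3 arrays lay between -1.80 and -1.76, the lowest of all 18, and the WT S2 and S3 arrays overlapped, with -1.5 to -1.42 in WT S3 cells. Pfkp minus Pfkl rose by 0.36 between S1 and S2 and fell by 0.23 between S2 and S3 (permutation adjusted p = 0.02 for each), and each call was lost without 1 array, Mst1KO S2 replicate 3 for the first step and Mst1KO S3 replicate 2 for the second. Hk2 minus Hk1 differed by -0.35 between S1 and S2 and by -0.12 between S2 and S3 (permutation adjusted p = 0.08 and 0.406), and Pfkm minus Pfkl by 0.06 and -0.36 (permutation adjusted p = 0.725 and 0.167), so neither passed the threshold. Aldoc against Aldoa and Eno3 against Eno1 could not be tested, as the second gene of each pair was not measured.

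**Figure D4:**
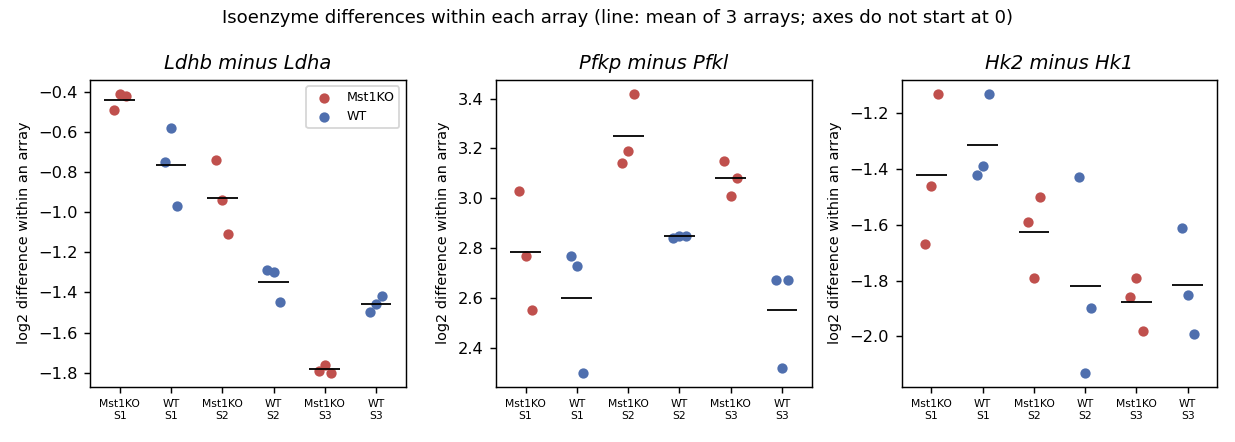
The log2 difference between the 2 genes of a pair within each array (points; Mst1KO red, WT blue; line, mean of 3 arrays) for lactate dehydrogenase, phosphofructokinase and hexokinase. At S3, Ldhb minus Ldha lies between -1.80 and -1.76 in Mst1KO S3 cells and between -1.5 and -1.42 in WT S3 cells.

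The pentose phosphate genes did not move as a group: their median S3 minus S1 difference was -0.25 in Mst1KO cells and -0.08 in WT cells, and calls ran both ways. Taldo1, transaldolase of the non-oxidative branch, was lower at S3 than at S1 by 0.26 in Mst1KO cells and 0.44 in WT cells (adjusted p = 0.0243 and 0.000475). Rpe, ribulose phosphate epimerase, stood at 7.36, 7.81 and 7.47 in Mst1KO S1 cells, 7.66, 7.51 and 7.59 at S2 and 7.31, 6.76 and 7.07 at S3. In WT cells Rpe stood at 7.6, 7.37 and 7.42 (S1), 7.25, 7.25 and 7.51 (S2) and 7.18, 7.35 and 6.98 (S3). The Mst1KO S3 arrays lay below the earlier Mst1KO arrays, and WT S3 overlapped WT S2. Rpe was lower at S3 than at S2 in Mst1KO cells (-0.54, adjusted p = 0.0161) and uncalled in WT cells (-0.16). Pgd, which makes NADPH in the oxidative branch, stood at 8.62, 9.24 and 9.28 in Mst1KO S1 cells, 9.39, 9.2 and 9.32 at S2 and 9.59, 9.76 and 9.57 at S3. In WT cells Pgd stood at 9.35, 9.36 and 9.57 (S1), 9.41, 9.4 and 9.88 (S2) and 9.29, 9.53 and 9.23 (S3). It was the gene called higher at S3 than at S1 in Mst1KO cells (0.59 ± 0.16, SE; adjusted p = 0.0121), where S1 replicate 1 lay far below the other 2, and its WT difference was -0.08. Pgls, the lactonase of the oxidative branch, and Rpia, which interconverts ribose and ribulose phosphates, were called nowhere.

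Among the pyruvate dehydrogenase and TCA genes, Idh2 and Mdh2 were called lower at S3 than at S1 in both genotypes. Idh2, the NADP-dependent mitochondrial isocitrate dehydrogenase, stood at 7.72, 8.01 and 8.09 in Mst1KO S1 cells, 7.31, 7.58 and 7.54 at S2 and 7.24, 7.06 and 7.32 at S3. In WT cells Idh2 stood at 7.77, 7.61 and 8.0 (S1), 7.39, 7.26 and 7.62 (S2) and 7.29, 7.43 and 7.18 (S3). S1 held the highest values in both genotypes, and WT S2 overlapped both other WT stages. Idh2 fell between S1 and S3 by 0.73 in Mst1KO cells and by 0.49 in WT cells (adjusted p = 0.000516 and 0.00825). Idh3a, the catalytic subunit of the NAD-dependent enzyme, stood at 8.56, 8.59 and 8.52 in Mst1KO S1 cells, 8.62, 8.53 and 8.74 at S2 and 8.24, 8.4 and 8.22 at S3. In WT cells Idh3a stood at 8.56, 8.71 and 8.66 (S1), 8.64, 8.51 and 8.72 (S2) and 7.82, 8.25 and 7.95 (S3). S1 and S2 overlapped, and all S3 arrays lay below them. The S3 minus S2 difference was -0.34 ± 0.11 in Mst1KO cells and -0.61 ± 0.11 in WT cells (SE; adjusted p = 0.0348 and 0.000386). The Mst1KO call was lost in 4 of 6 fits without 1 array and under 3 other settings, and the Mst1KO difference from S1 was -0.26, uncalled (adjusted p = 0.0787). Its partner subunit Idh3b was called nowhere, with S3 minus S1 differences of 0.19 in Mst1KO cells (95% interval -0.03 to 0.41) and 0.03 in WT cells (95% interval -0.19 to 0.25).

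Suclg1, the alpha subunit of succinyl-CoA ligase, stood at 9.59, 9.43 and 9.55 in Mst1KO S1 cells, 9.63, 9.4 and 9.6 at S2 and 9.36, 8.99 and 9.24 at S3. In WT cells Suclg1 stood at 9.46, 9.43 and 9.71 (S1), 9.37, 9.53 and 9.52 (S2) and 9.13, 9.11 and 8.83 (S3). Fh1, fumarase, stood at 8.29, 8.06 and 8.38 in Mst1KO S1 cells, 8.36, 8.2 and 8.37 at S2 and 7.91, 7.85 and 8.02 at S3. In WT cells Fh1 stood at 8.08, 8.2 and 8.48 (S1), 8.26, 8.0 and 8.57 (S2) and 7.79, 7.7 and 7.93 (S3). For both genes S3 was the low stage of each genotype. Suclg1 was lower at S3 than at S1 by 0.51 in WT cells (adjusted p = 0.00261), while the Mst1KO difference of -0.32 just missed the threshold (adjusted p = 0.0503). Fh1 was lower by 0.45 in WT cells (adjusted p = 0.0177), with -0.32 in Mst1KO cells (adjusted p = 0.102). Mdh2, the mitochondrial malate dehydrogenase, was called lower at S3 than at S1 in both genotypes (-0.33 in Mst1KO cells and -0.4 in WT cells). Its cytosolic counterpart Mdh1, with -0.31 in Mst1KO cells and -0.21 in WT cells, was called in neither.

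Of the pyruvate dehydrogenase complex, which opens the way from pyruvate into the cycle, Pdha1 (the regulated alpha subunit) was lower at S3 than at S1 by 0.36 in WT cells, with -0.2 in Mst1KO cells, uncalled. Dld, the dehydrogenase subunit shared with oxoglutarate dehydrogenase, was lower by 0.35 in WT cells (adjusted p = 0.0483, lost in 5 of 6 fits without 1 array), with -0.22 in Mst1KO cells. Pdhb and Dlat, its other core subunits, and Ogdh, the oxoglutarate dehydrogenase that runs a later step, were called in no comparison. Cs, citrate synthase, which starts the cycle, stood at 9.59, 9.57 and 9.64 in Mst1KO S1 cells, 9.47, 9.45 and 9.33 at S2 and 9.51, 9.44 and 9.4 at S3. In WT cells it stood at 9.45, 9.57 and 9.52 (S1), 9.33, 9.34 and 9.31 (S2) and 8.97, 9.19 and 9.14 (S3). The WT stages stepped down without overlap, whereas Mst1KO S3 overlapped Mst1KO S2. Cs was lower at S3 than at S1 in WT cells (-0.42 ± 0.08, SE; adjusted p = 0.000578), with -0.15 (95% interval -0.31 to 0.02) in Mst1KO cells.

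The promoters of 5 genes that carry these results are shown, 250 bases upstream of the start, from RefSeq for mouse GRCm38.p6: 3 lower-glycolysis genes whose promoters hold the motif ACGTG, and the 2 genes that differed between genotypes, which lack it. ACGTG, which reads CACGT when the opposite strand is written out, is a form of the core of the element bound by HIF-1. CACGTG, which contains both, is the E-box bound by MYC among others. Capitals mark these letters. The form GCGTG was not searched for or marked, and the Pfkp window holds it. A window without ACGTG may therefore still hold a HIF-1 core. Pgk1 lies at chrX:106186850-106187099 (+), Pgam1 at chr19:41911621-41911870 (+), the first of 2 listed Ldha promoters at chr7:46845554-46845803 (+), Pfkp at chr13:6648772-6649021 (-) and Cs at chr10:128337477-128337726 (+).
Pgk1: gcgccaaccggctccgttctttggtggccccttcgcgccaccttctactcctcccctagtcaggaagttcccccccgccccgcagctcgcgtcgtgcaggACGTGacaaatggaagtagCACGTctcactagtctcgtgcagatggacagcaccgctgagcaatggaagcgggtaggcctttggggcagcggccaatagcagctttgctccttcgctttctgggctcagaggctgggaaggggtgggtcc
Pgam1: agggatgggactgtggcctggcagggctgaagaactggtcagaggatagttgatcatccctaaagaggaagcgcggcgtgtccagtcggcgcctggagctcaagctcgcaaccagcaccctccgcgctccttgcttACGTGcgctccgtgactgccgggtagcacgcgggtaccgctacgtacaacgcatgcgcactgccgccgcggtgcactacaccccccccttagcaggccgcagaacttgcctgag
Ldha: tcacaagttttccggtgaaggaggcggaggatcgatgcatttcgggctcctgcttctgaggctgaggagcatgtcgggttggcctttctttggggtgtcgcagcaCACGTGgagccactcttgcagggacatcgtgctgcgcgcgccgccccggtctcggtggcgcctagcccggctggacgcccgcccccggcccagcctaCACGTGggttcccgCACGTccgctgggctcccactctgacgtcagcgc
Pfkp: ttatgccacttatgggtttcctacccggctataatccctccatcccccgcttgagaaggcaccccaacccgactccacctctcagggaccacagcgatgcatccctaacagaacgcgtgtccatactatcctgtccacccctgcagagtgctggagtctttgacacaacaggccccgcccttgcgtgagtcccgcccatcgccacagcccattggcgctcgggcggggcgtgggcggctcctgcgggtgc
Cs: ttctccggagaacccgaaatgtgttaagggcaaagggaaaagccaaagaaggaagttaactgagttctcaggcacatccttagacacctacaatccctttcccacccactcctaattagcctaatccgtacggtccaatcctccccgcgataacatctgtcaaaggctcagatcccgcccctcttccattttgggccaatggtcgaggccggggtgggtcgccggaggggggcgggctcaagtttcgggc
The Pgk1 window held 2 ACGTG sites, counting both strands, and the Pgam1 window 1, while the Ldha window held 2 CACGTG sites and 1 more CACGT. On either strand, ACGTG was present in 17 of 52 promoters listed for the enzyme genes (32.7%), against 16.6% of 32851 mouse promoters of the same length. CACGTG was present in 5 of the 52 (9.62%), against 6.02% of all. These shares are by promoter, and the 17 promoters with ACGTG belong to 10 genes, so they are not independent. No share by gene was taken over all mouse genes. By gene, 10 of 35 with a listed promoter held ACGTG: Aldoa, Hk2, Ldha, Mdh1, Ogdh, Pdhb, Pfkm, Pgam1, Pgk1 and Pkm. Some of these were lower at S3 in both genotypes (Pgam1, Pgk1, Pkm), and others (Mdh1, Ogdh, Pdhb) were called nowhere. Ldha and Hk2 were called lower at S3 than at S1 in WT cells alone and Pfkm in Mst1KO cells alone, and Aldoa was not measured. Ldhb, Taldo1, Idh2 and Mdh2, called lower at S3 than at S1 in both genotypes, are not among the 10. A match in these letters is a description of the window and not a binding site.

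The 2 genotypes were compared at each stage. At S1 none of the 31 genes was called (0.33% of all genes were), with 2 at an unadjusted limma p under 0.05 (Ldhb higher and Pgd lower in Mst1KO cells). The 95% intervals of the S1 differences ran from -0.73 at the lowest to 0.65 at the highest, and 26 of 31 lay within 0.5 of zero. At S2 none was called either (1.17% of all genes were), with 4 at an unadjusted p under 0.05: Pfkp, Eno3 and Ldhb were higher and Pgam1 was lower. The S2 intervals ran from -0.61 to 0.83, and 24 of 31 lay within 0.5 of zero.

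At S3, Pfkp and Cs were called higher in Mst1KO cells, 2 of 31 genes where 2.35% of all tested genes were called higher, and none was called lower. Pfkp was 1.54-fold higher (0.62 ± 0.09, SE; adjusted p = 0.000945), with all 3 Mst1KO S3 arrays above all 3 WT S3 arrays. The call held in all 9 alternative settings tried and in all 6 fits without 1 array. Cs was 1.28-fold higher (0.35 ± 0.08, SE; adjusted p = 0.0228), also without overlap, but the call was lost in 4 of 6 fits without 1 array (without any 1 of the 3 Mst1KO S3 arrays or without WT S3 replicate 1). The Cs call was also lost under 3 of 9 other settings: repeated quantile normalization, median centring and only the groups compared. Ldha was 0.41 apart (95% interval 0.16 to 0.65, adjusted p = 0.0691) and uncalled; it passed the threshold without WT S3 replicate 2, under a stricter filter on dim probe sets and with a variance trend. Idh3a (0.28) passed only without WT S3 replicate 2. Of all 31, 7 had an unadjusted p under 0.05 at S3: Pfkp, Ldha, Taldo1, Pdha1, Cs and Idh3a were higher, and Pgls was lower (-0.29). The S3 intervals ran from -0.55 to 0.82, and 23 of 31 lay within 0.5 of zero.

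Cell markers also differed between the genotypes at S3, and their part in these results was not tested. Of the 8 iNKT markers, 1 was called higher and 1 lower in Mst1KO S3 cells, where 306 and 137 of all 13034 tested genes were. Slamf6 stood at 9.28, 9.98 and 10.25 in Mst1KO S3 cells and 6.91, 8.61 and 8.92 in WT S3 cells. Il4 stood at 7.35, 7.18 and 7.17 against 8.34, 8.31 and 7.99. The summed level of 3 gamma-delta T cell markers was 652 to 691 on the Mst1KO S3 arrays and 190 to 275 on the WT S3 arrays. All 3 markers lay above the median over measured genes in both groups. Blk stood at 8.74, 8.77 and 8.81 in Mst1KO S3 cells and 6.59, 6.93 and 5.61 in WT S3 cells. Cd163l1 stood at 7.16, 7.36 and 6.89 against 6.27, 6.02 and 6.02, and Sox13 overlapped. In bulk RNA of cells sorted as TCRb+ and tetramer+, whether iNKT cells or other cells carried these markers cannot be told. The sum of 12 macrophage and dendritic cell markers was 842 to 1120 in Mst1KO S3 cells and 652 to 757 in WT S3 cells. That of 6 thymic stroma markers was 177 to 191 in Mst1KO S3 cells and 206 to 212 in WT S3 cells. Of these 6, 2 lay above the median over measured genes in Mst1KO S3 cells and 3 in WT S3 cells. Of 19 mitosis genes, 2 were called higher in Mst1KO S3 cells (2.35% of all genes were), 15 were higher at an unadjusted limma p under 0.05, and the median difference was 0.55, with 16 of the 19 above 0.

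**Figure D5:**
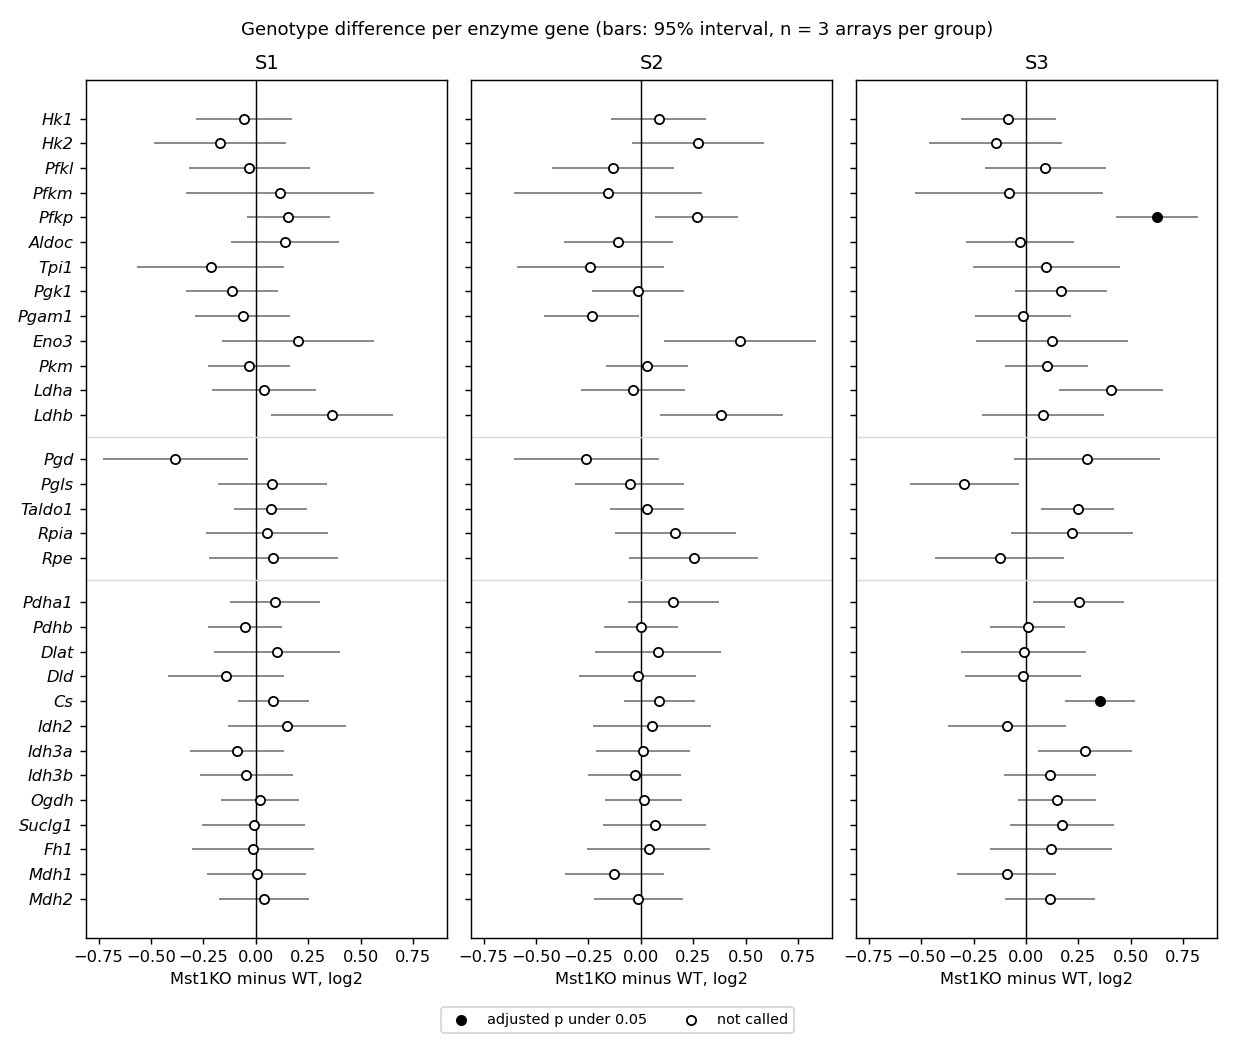
The Mst1KO minus WT log2 difference of each gene at S1, S2 and S3 with its 95% interval (n = 3 arrays per group), filled where called. The filled points are Pfkp and Cs at S3, at 0.62 and 0.35.

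Over the average of the 3 stages, 1 of 31 genes was called higher, where 1.47% of all genes were: Pfkp (0.35 ± 0.06, SE; adjusted p = 0.0362). That call was lost in all 6 fits without 1 replicate. Whether a stage change itself differed between genotypes was tested as an interaction. None of the 31 was called for the S2 minus S1 change (0.0153% of all genes were; none at an unadjusted p under 0.05), for the S3 minus S2 change (0.368% of all genes; 4 at an unadjusted p under 0.05) or for the S3 minus S1 change (0.56% of all genes; 6 at an unadjusted p under 0.05), the last a comparison added after seeing the data. Pfkp had the smallest p of the S3 minus S1 set, a change 0.47 higher in Mst1KO cells (95% interval 0.19 to 0.75, adjusted p = 0.158), and passed the threshold only under a fit with a variance trend. For Ldha the interaction was 0.37 (95% interval 0.02 to 0.72), for Pgd 0.67, for Idh3a 0.37 and for Cs 0.27, all uncalled. From S1 to S3, 2 genes were called lower in Mst1KO and not in WT cells, 10 in WT and not in Mst1KO cells, and 7 in both, where over all 13034 genes 369 were called lower in Mst1KO cells alone, 895 in WT cells alone and 1506 in both. For none of the enzyme genes was the difference between the genotypes in this S3 minus S1 change called. Across the 31 genes, the S3 minus S1 changes of Mst1KO and WT cells had a Pearson r of 0.774, against 0.885 over all 13034 genes, as a description across genes that share arrays.

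Counts of other genes of these pathways are read against the share of all tested genes called between S1 and S3: 12.3% higher and 14.4% lower in Mst1KO cells, and 15.4% higher and 18.4% lower in WT cells. Of 18 tested further glycolysis and lactate genes, 2 rose and 4 fell between S1 and S3 in Mst1KO cells, and 2 rose and 2 fell in WT cells. The genes that rose were the glucose transporters: Slc2a3 by 1.04 in Mst1KO cells and 1.29 in WT cells, and Slc2a1 by 0.6 in Mst1KO cells and 0.75 in WT cells. Slc2a3 stood at 8.18, 8.04 and 8.12 on the Mst1KO S3 arrays and 8.38, 8.63 and 8.5 on the WT S3 arrays, all above every earlier array. Gapdh, the step before Pgk1, fell by 0.32 in Mst1KO cells and 0.42 in WT cells, and Slc16a1, a transporter of lactate, by 0.76 in Mst1KO cells and 0.97 in WT cells. In both genotypes the glucose transporters Slc2a3 and Slc2a1 rose from S1 to S3 while Slc16a1, Pgk1, Pgam1 and Pkm fell.

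Of 6 tested further pentose phosphate and ribose genes, 2 rose between S1 and S3 in each genotype and none fell (no gene had an unadjusted p under 0.05 in that direction): H6pd, which starts the pathway in the endoplasmic reticulum, by 0.79 in Mst1KO cells and 1.02 in WT cells, and Pgm2l1, a sugar phosphate mutase relative, by 1.03 in Mst1KO cells and 1.04 in WT cells. Of 24 tested further pyruvate dehydrogenase and TCA genes, 5 fell and 1 rose in Mst1KO cells and 4 fell in WT cells. Pdk3, a kinase that inhibits pyruvate dehydrogenase, fell by 0.74 in Mst1KO cells and 1.11 in WT cells. Got1, the cytosolic aspartate aminotransferase, fell by 0.33 in Mst1KO cells and 0.62 in WT cells, and Sdhb of succinate dehydrogenase by 0.33 in Mst1KO cells and 0.41 in WT cells. In Mst1KO cells the Sdhb call was lost in all 6 fits without 1 array and the Got1 call in 2 of 6. Pcx, pyruvate carboxylase, which refills the cycle, fell by 0.74 in WT cells, with -0.44 in Mst1KO cells, uncalled. Me2, the mitochondrial malic enzyme, was the gene of this list called between genotypes at S3, higher in Mst1KO cells by 0.42 (adjusted p = 0.0305), a call lost in 4 of 6 fits without 1 array and under 2 of 9 other settings.

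Among 15 tested regulators of glucose metabolism, 6 rose and 4 fell between S1 and S3 in Mst1KO cells, and 7 rose and 3 fell in WT cells. These counts and those of the HIF-1 targets below stand beside the same shares of all tested genes. Those shares were 12.3% higher and 14.4% lower in Mst1KO cells, and 15.4% higher and 18.4% lower in WT cells. Txnip, an inhibitor of glucose uptake, rose by 0.77 in Mst1KO cells and 1.68 in WT cells. Hif1a, the oxygen-sensing driver of glycolytic genes, fell by 0.33 in Mst1KO cells and 0.58 in WT cells, while Myc, another driver, rose by 0.66 in Mst1KO cells and 0.61 in WT cells. Irf4, a factor known to support glycolysis in activated T cells, stood at 6.41, 6.75 and 6.69 on the Mst1KO S3 arrays and 5.07, 5.54 and 5.45 on the WT S3 arrays. At S1 it stood at 8.0, 8.1 and 7.95 in Mst1KO cells and 7.85, 8.0 and 7.72 in WT cells, so it was low at S3 in both and lowest in WT. It was the regulator called between genotypes at S3 (1.26, adjusted p = 2.11e-05). Of 8 tested HIF-1 targets outside glycolysis, 1 rose and 2 fell in Mst1KO cells and 2 rose and 2 fell in WT cells. Ddit4, an inhibitor of mTORC1, fell by 1.5 in Mst1KO cells and 0.69 in WT cells. The WT call of Ddit4 was lost in 4 of 6 fits without 1 array. Bhlhe40, a transcriptional repressor, rose by 2.51 in Mst1KO cells and 3.2 in WT cells. It was called lower in Mst1KO than in WT cells at S3 (-0.89, limma adjusted p = 0.0257). That call was lost in 3 of 6 fits without 1 array and with only the groups compared. Over the stage average Bhlhe40 was also called lower (-0.48, limma adjusted p = 0.0436), a call lost in 5 of 6 fits without 1 replicate.

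Several other measures moved with the stages, and their part in the enzyme results was not tested. All 19 tested mitosis genes were called lower at S3 than at S2 in both genotypes, with a median difference of -1.79 in Mst1KO cells and -2.60 in WT cells. Their median relative level on the S3 arrays lay between -1.56 and -1.09 in Mst1KO cells and between -2.09 and -1.34 in WT cells. The gamma-delta T cell sum given above for S3 was 444 to 512 on the Mst1KO S1 arrays and 420 to 594 on the WT S1 arrays. At S3 the sum was thus above S1 in Mst1KO cells and below S1 in WT cells. In Mst1KO cells the 3 markers did not move together. Blk rose from 6.27, 6.4 and 6.31 at S1 to 8.74, 8.77 and 8.81 at S3. Cd163l1 fell from 8.18, 8.37 and 8.16 to 7.16, 7.36 and 6.89, and Sox13 overlapped between these stages. The macrophage and dendritic cell sum given above for S3 was 448 to 471 on the Mst1KO S1 arrays and 413 to 495 on the WT S1 arrays. Of the 12 markers, 6 lay above the median over measured genes in each S3 group, and 2 in each S1 group. The sum of 9 measured markers of conventional and immature T cells was 1145 to 1320 in Mst1KO S3 cells and 1265 to 1321 in WT S3 cells, against 4069 to 4461 in Mst1KO S1 cells and 3249 to 3840 in WT S1 cells. The list did not move as a group. Of its 6 tested genes, S3 minus S1 was negative for 4 and positive for 2 in Mst1KO cells, and 3 and 3 in WT cells. Lef1 and Igfbp4, with the highest S1 values, fell in both genotypes. Dntt rose in Mst1KO cells from 4.14, 4.36 and 4.66 at S1 to 5.84, 5.58 and 5.91 at S3. The sum of 6 markers of NK and innate lymphoid cells, which iNKT cells also come to express, was 991 to 1307 in Mst1KO S3 cells and 1106 to 1234 in WT S3 cells, against 386 to 434 in Mst1KO S1 cells and 356 to 385 in WT S1 cells. These markers did not all rise. Of the 5 tested, S3 minus S1 was positive for 3 and negative for 2 in Mst1KO cells, and 4 and 1 in WT cells. Fcer1g rose in both genotypes. Rora fell from 7.75, 7.81 and 7.59 to 7.1, 6.61 and 7.02 in Mst1KO cells. In WT cells Rora fell from 7.78, 7.64 and 7.35 to 5.8, 6.49 and 6.47.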

How the data were processed

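The authors deposited log2 expression per probe set from 18 MoGene-2_0 arrays, which the submitters' processing notes credit to RMA and Affymetrix Expression Console 1.1. RMA removes background, equalises the arrays' distributions and summarises probes into sets. The sources used here name no genome build for the probe sets.

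The platform annotation gave 1 gene symbol to 23521 of 41345 probe sets, several to 1814 and none to 16010. A single-symbol probe set was kept if it exceeded the median of its array on 3 or more of the 18 arrays, and the brightest stood for its gene, which left 13034 genes. Replicates of a group correlated at 0.976 to 0.986 across all probe sets. Groups came from the labels. A mean per group was fitted over all 18 arrays with limma 3.58.1 in R 4.3.3 (lmFit, eBayes), p-values were adjusted by Benjamini-Hochberg over all 13034 genes, and genes were called at an adjusted p under 0.05. The average over stages was fitted on 3 values against 3, each the mean of the stages of 1 genotype and replicate number. Isoenzyme differences were tested by exact permutation. Scripts were tested on simulated data.

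Alternatives were a filter at the 75th percentile or none, centring on medians, a second quantile normalization, weights per array, a robust fit with a variance trend, averaged probe sets, fits of the compared groups alone, replicate blocks and leaving out each array. Members and other lists were chosen with earlier results of these data known, and the S3 minus S1 interaction was added after seeing the data. Every enzyme is accounted for, those called in a stage or genotype comparison are named with it, and of the other pathway lists the called genes with the largest differences, up to 6 per list and comparison, could be named. The number of arrays, not a count of molecules, limits the precision.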

Additional observations from a re-analysis of the deposited data

Results flagged for a closer look

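Irf4, a transcription factor on the list of regulators of glucose metabolism, was flagged because its stage change differed between the genotypes in an interaction test. Its S3 minus S2 change was 1.09 higher in Mst1KO than in WT cells, a fall by 1.63 in Mst1KO cells against a fall by 2.72 in WT cells (limma, adjusted p = 0.0114). Its S3 minus S1 change was 1.1 higher in Mst1KO than in WT cells, a fall by 1.4 in Mst1KO cells against a fall by 2.51 in WT cells (adjusted p = 0.00648), a comparison added after seeing the data. No enzyme gene among the 31 was flagged for an interaction.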

How the results depend on the processing

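Of 53 calls of enzyme genes, 24 held under every alternative, 29 were lost in some fit without 1 array and 19 under some other alternative; none changed direction. Between Mst1KO and WT cells at S3 the count of 2 was 1 with repeated quantile normalization, median centring or only the groups compared, and 1 to 4 without 1 array. Over the stage average it was 0 with the replicate block and 0 in every fit without 1 replicate. The Mst1KO count for S2 minus S1, 2 in the main setting, was 1 with no filter, 0 with only the groups compared and 0 to 1 without 1 array; without 1 array it ran from 3 to 7 for S3 minus S2 and from 7 to 11 for S3 minus S1. The WT count was 0 with only the groups compared for S2 minus S1, and 8 for S3 minus S2. Without 1 array it ran from 0 to 1 for S2 minus S1, 9 to 14 for S3 minus S2 and 11 to 18 for S3 minus S1. The S3 minus S1 interaction had 1 call, Pfkp, with the variance trend and robust fit. Without 1 array, Hk2 minus Hk1 between S1 and S2 ran from -0.45 to -0.27 and passed the threshold without WT S2 replicate 1 or Mst1KO S1 replicate 1; Pfkp minus Pfkl ran from 0.29 to 0.42 between S1 and S2 and from -0.26 to -0.17 between S2 and S3. Outside the enzymes, Got2 from S1 to S3 in Mst1KO cells turned from -0.35 to 0.65 when its probe sets were averaged. With the replicate number as a block the S3 minus S1 count was 12 in Mst1KO and 16 in WT cells and the genotype count at S3 stayed 2; beyond the stage average the block moved no count by over 1.5 times. Within a genotype, same-numbered arrays correlated in their deviations from the group means at -0.053 to 0.206, over 0.1 in 3 of 18 pairs, and 17 of 18 arrays correlated best with their own number, a hint from the data and not the design; whether a number marks a mouse is not known here. With the block within genotypes, the S3 minus S2 calls of Idh3a in Mst1KO cells and of Eno3 and Cs in WT cells were lost, as were the S3 minus S1 calls of Sdhb and Got1 in Mst1KO cells and of Dld in WT cells. The causes were not tested. Dim genes (Hk2, Pfkm, Aldoc) lie near the array median, where signal over background limits what can be seen, probe sets can read near-identical copies, and 5 enzymes were not measured.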
